A study of Rattus norvegicus with 8 samples.

Results

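The proteasome genes were taken as every gene whose symbol began with Psma, Psmb, Psmc, Psmd, Psme or Psmf and that had a probe set of its own, that is, one annotated with a single gene symbol. There were 42 such genes of 14217 on the array, with 56 probe sets, and 9 of the 42 had more than 1. Each gene was followed on its brightest probe set. Of the 42, 41 passed the limit on dim genes, as did 9258 genes in all, and the other, Psmc3ip, read between 1 and 6.74 on the 8 arrays. Psmc3ip and Psme3ip1 are named for proteins that bind a subunit and are not subunits themselves. Psmb6 and Psme3 had only probe sets annotated with other genes as well, and no probe set was found for Psma8 and Psmb11, so these 4 were not followed.

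RNA came from Wistar rats, 4 months old by the labels and female by the methods, whose proximal small intestine was stripped of its epithelial cells, and 2 Affymetrix arrays were run for each of 4 groups. The TW group drank tap water for 3 days and the WR group had water withheld for 12 h by the labels, although the methods also mention a longer restriction. The DSW1200 group drank deep sea water of hardness 1200 for 3 days, and the SeW group drank selenium water, given in the methods as sodium selenite, for 3 days. No source used here says whether the 2 arrays of a group came from separate animals, so that p-values measured only the spread between arrays, which may be technical.

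The proteasome is the protease complex that degrades most ubiquitin-tagged proteins in the cytosol and nucleus. Its core is a barrel of α rings, which form the gate, and β rings, which hold the catalytic sites. A cap of ATPases and scaffold subunits binds the ubiquitin chain, removes it, unfolds the substrate and feeds it into the core. Interferon gamma leads cells to replace the catalytic β subunits with the inducible subunits Psmb8, Psmb9 and Psmb10, which form the immunoproteasome and favour peptides for MHC class I. The epithelium of the small intestine is renewed continuously and lies next to a large population of lymphocytes, and both epithelial cells and leukocytes can hold the inducible subunits.

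The promoters of 5 of these genes are shown. The inducible subunits and the activator subunit Psme2 are among the members known for their response to interferon, and Psmb5 is the constitutive subunit that Psmb8 replaces. Each window runs from 250 bases before the annotated gene start to 50 bases after it, is written 5′ to 3′ on the gene's own strand and was taken from RefSeq, build GRCr8. Capitals mark matches, on either strand, to TGACNNNGC (the core of the antioxidant response element, bound by Nrf1 and Nrf2), CCAAT (bound by NF-Y), TTCNNNGAA (the gamma interferon activation site), GGGCGG (the GC box) and the core of the interferon stimulated response element.
Psmb8, chr20:4656982-4657281 (minus strand): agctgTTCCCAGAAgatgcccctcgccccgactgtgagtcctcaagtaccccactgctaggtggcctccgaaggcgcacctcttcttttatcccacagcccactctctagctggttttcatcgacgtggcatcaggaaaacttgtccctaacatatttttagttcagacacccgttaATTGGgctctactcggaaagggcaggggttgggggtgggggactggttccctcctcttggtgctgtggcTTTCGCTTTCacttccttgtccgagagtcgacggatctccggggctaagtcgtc
Psmb9, chr20:4668750-4669049 (plus strand): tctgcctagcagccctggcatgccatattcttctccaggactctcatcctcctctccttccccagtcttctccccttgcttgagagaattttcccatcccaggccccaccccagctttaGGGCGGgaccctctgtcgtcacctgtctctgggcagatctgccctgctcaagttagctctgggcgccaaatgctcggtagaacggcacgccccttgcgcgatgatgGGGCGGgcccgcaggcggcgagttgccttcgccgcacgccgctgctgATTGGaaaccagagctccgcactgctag
Psmb10, chr19:50743243-50743542 (minus strand): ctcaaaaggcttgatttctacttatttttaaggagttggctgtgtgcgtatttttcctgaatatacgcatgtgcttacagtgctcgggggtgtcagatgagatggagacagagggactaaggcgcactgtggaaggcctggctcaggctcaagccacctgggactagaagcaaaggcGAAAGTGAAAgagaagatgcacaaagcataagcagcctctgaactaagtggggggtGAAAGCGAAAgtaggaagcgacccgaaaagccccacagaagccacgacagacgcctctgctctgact
Psme2, chr15:33052702-33053001 (minus strand): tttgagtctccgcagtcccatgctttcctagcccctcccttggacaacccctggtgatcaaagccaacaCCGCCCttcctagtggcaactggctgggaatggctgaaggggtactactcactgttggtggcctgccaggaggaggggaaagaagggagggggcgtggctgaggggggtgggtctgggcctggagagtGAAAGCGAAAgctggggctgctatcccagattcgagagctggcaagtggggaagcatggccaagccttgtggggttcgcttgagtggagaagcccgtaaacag
Psmb5, chr15:32047330-32047629 (minus strand): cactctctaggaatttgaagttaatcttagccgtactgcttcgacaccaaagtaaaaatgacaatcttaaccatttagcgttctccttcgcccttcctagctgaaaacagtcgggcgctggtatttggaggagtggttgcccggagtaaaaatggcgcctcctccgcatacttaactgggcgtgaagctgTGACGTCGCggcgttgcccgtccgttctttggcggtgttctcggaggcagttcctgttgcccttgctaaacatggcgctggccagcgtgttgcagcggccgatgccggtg
In Psmb8 the capitals are, in order, a gamma interferon activation site that begins 245 bases before the start, a CCAAT match on the reverse strand and an interferon stimulated response element core on the reverse strand that begins 4 bases before the start. Psmb10 held 2 matches to the interferon stimulated response element core, 73 and 17 bases before the start, and Psme2 held 1, 53 bases before it. The window of Psmb9 held 2 GC boxes and a reverse CCAAT, and that of Psmb5 held 1 antioxidant response element core, 60 bases before the start. Psme1, the interferon-inducible partner of Psme2, is not shown. Its window held 1 GC box and no match to the gamma interferon activation site or the interferon stimulated response element core.

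Promoters were matched for 38 of the 42 genes, and Psma7, Psmd6, Psmd12 and Psmd14 had no entry. The interferon stimulated response element core was found in 6 of the 38, or 15.8%, which were Psma4, Psmb3, Psmb8, Psmb10, Psmd7 and Psme2, against 3.92% of all 33469 promoters of the same length. The gamma interferon activation site was found in 10.5% against 8.87%. The antioxidant response element core was found in 7 of the 38, or 18.4%, against 12.1%, and those 7 were Psma3, Psmb2, Psmb5, Psmd1, Psmd3, Psmd9 and Psme4. CCAAT was found in 55.3% against 37.5%, and the GC box in 65.8% against 33.1%. Over promoters of protein-coding genes alone the shares were 3.7%, 8.32%, 12.5%, 38% and 41.8% in this order of motifs. The 2 interferon motifs share letters, so that 1 stretch can match both, which did not occur in the 5 windows shown. A match is a run of letters and not a shown binding site.

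Levels are given as signals, the deposited brightness of a probe set after every array was brought to the same distribution (quantile normalization), and differences are differences of mean log2 signal between groups. The limit on dim genes was a mean signal of 6.69, the median over probe sets, and each adjusted p was corrected over all 9258 genes tested. The signal ranks the arrays within a gene and not 1 gene against another. On log2 values of all 31099 probe sets, dim ones included, array 2 of the TW group correlated with the other 7 arrays at 0.902 to 0.911. TW array 1 was among these 7, and the 21 pairs without TW array 2 lay between 0.920 and 0.949. By this measure TW array 2 stood apart from the rest, and every comparison with TW used it. TW array 2 also had the lowest median signal as deposited, 4.3 against 6.1 to 11.1 on the others. Whether this lowered its correlations was not tested. The 3′ to 5′ signal ratio of β-actin, a sign of RNA quality, was 10.9 and 13.6 on the SeW arrays and 20.6 to 32.8 on the other 6, so the SeW arrays also differed in this respect. With the ratio as a term in the model some medians of the subunit classes moved, as given beside them. All 10 enterocyte markers with a probe set of their own were over the limit on dim genes, and their summed signal was 38770 to 40059 in TW, 35099 to 36889 in WR, 37922 to 38793 in DSW1200 and 44222 to 45789 in SeW. The 10 crypt and cycling markers with a probe set summed to 427 to 602 in TW, 555 to 716 in WR, 339 to 367 in DSW1200 and 547 to 722 in SeW, and of the 7 over the limit all had a higher mean than TW in WR and SeW and 6 in DSW1200, with medians of 1.14, 1.03 and 0.59. The part of these cells in the results was not tested. In such mixed cells, fewer cells of a type and less RNA per cell cannot be told apart.

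No proteasome gene passed the test for any difference between the groups. In limma's F test over the 4 groups 0 of the 41 genes had an adjusted p under 0.05, where 0.616% of all 9258 genes did, and at an unadjusted p under 0.05 there was 1, Psmb8, against 17.6% of all genes. The counts of all 6 comparisons of pairs were 0 as well. The share of all genes called was 0.0108% for WR against TW, 0% for DSW1200 against TW, 1.91% for SeW against TW, 2.72% for SeW against DSW1200, 1.23% for SeW against WR and 0% for DSW1200 against WR. The lowest adjusted p among the members, 0.053, belonged to Psmb8 in SeW against TW. An exact permutation test on 2 arrays against 2 alone could not have reached the threshold, since its smallest two-sided p is 0.333. The limma fit took its spread from all 8 arrays.

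At an unadjusted p under 0.05, 2 members differed between WR and TW, Psmb7 and Psmb8, against 9.7% of all genes. Between DSW1200 and TW there were 7, or 17.1%, against 7.92% of all genes: Psma3 and Psmd12 had the higher mean in DSW1200, and Psmb5, Psmb7, Psmb9, Psmc4 and Psmc5 the lower. Between SeW and TW there were 6, or 14.6%, against 19.6%, all lower in SeW: Psmb4, Psmb8, Psmb10, Psmc5, Psmd10 and Psme2. Between SeW and DSW1200 there were 4, Psmc4 higher in SeW and Psmb4, Psmb8 and Psme2 lower, against 20% of all genes. Psme2 was the only one between SeW and WR, against 16.5%, and there was none between DSW1200 and WR, against 5.84%. In each comparison other than DSW1200 with TW the members' share was below that of all genes.

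The differences of the members were small. By the 2-fold rule that the study's methods name, 0 of the 41 differed from TW in WR, DSW1200 or SeW, where 4.8%, 4.26% and 6.8% of all genes did. The 95% interval of the difference lay within 2-fold in both directions for 37 of the 41 in each of these comparisons, where this held for 59.3%, 60.6% and 52.3% of all genes. The wider intervals belonged to Psma1, Psmb7, Psmc6 and Psmd12 in WR, to Psma3, Psmb7, Psmc6 and Psmd12 in DSW1200, and to Psma1, Psmb8, Psmc6 and Psmd12 in SeW. The standard errors of the members were also small, with a median of 0.178 log2 units against 0.264 over all genes, and the median gap between the 2 arrays of a group was 0.119 to 0.173 for the members and 0.213 to 0.327 for all genes.

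After quantile normalization the 41 genes had a median log2 difference from TW of -0.10 for WR, -0.06 for DSW1200 and -0.17 for SeW, against 0.20, 0.02 and 0.80 with the values as deposited. The median of all genes tested was -0.01, -0.02 and -0.04 after normalization and 0.38, 0.05 and 0.92 as deposited, so the members' median was the lower one on both scales. Without DSW1200 replicate 1 the median for DSW1200 was 0.018. The normalized mean was lower than in TW for 30 of the 41 genes in WR, 25 in DSW1200 and 27 in SeW, that is 73.2%, 61% and 65.9%, where 51.1%, 52.4% and 53.5% of all genes were lower. Both arrays of the treated group were below both TW arrays for 16, 15 and 18 members in that order, against 21.3%, 19.2% and 29.1% of all genes, and above both for 2, 6 and 4 members, against 18.4%, 16.6% and 22.1%. The comparisons share the TW arrays, so their medians are not independent of each other.

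**Figure D1:**
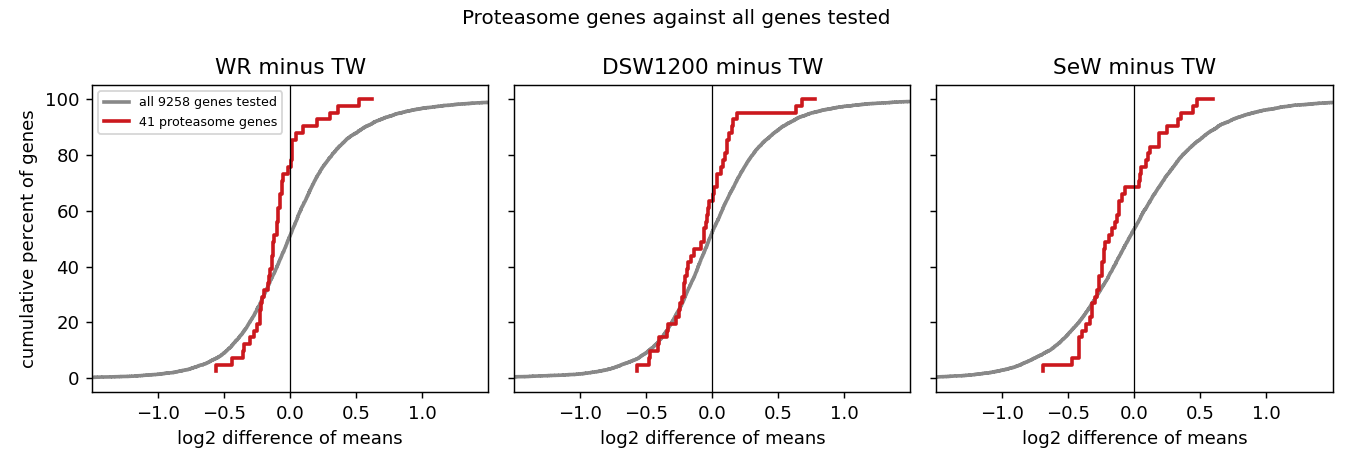
Cumulative percent of genes (vertical axis) by the log2 difference of the group mean from the TW mean (horizontal axis), for the 41 proteasome genes in red and all 9258 genes tested in grey. Quantile normalized values are shown, on which the red curves are steeper than the grey ones and reach 100% below a difference of 1.

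The plot of cumulative percentages shows both properties: the members lay in a narrower range than the genes at large, and the middle of their curve stood to the left. The genes at large included many that were dimmer than the members. The extremes were Psmb7 at -0.56 and Psmc6 at 0.62 in WR, Psmb7 at -0.57 and Psmd12 at 0.78 in DSW1200, and Psmb8 at -0.69 and Psma1 at 0.59 in SeW. The highest values rested on 1 TW array, as given further on.

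**Figure D2:**
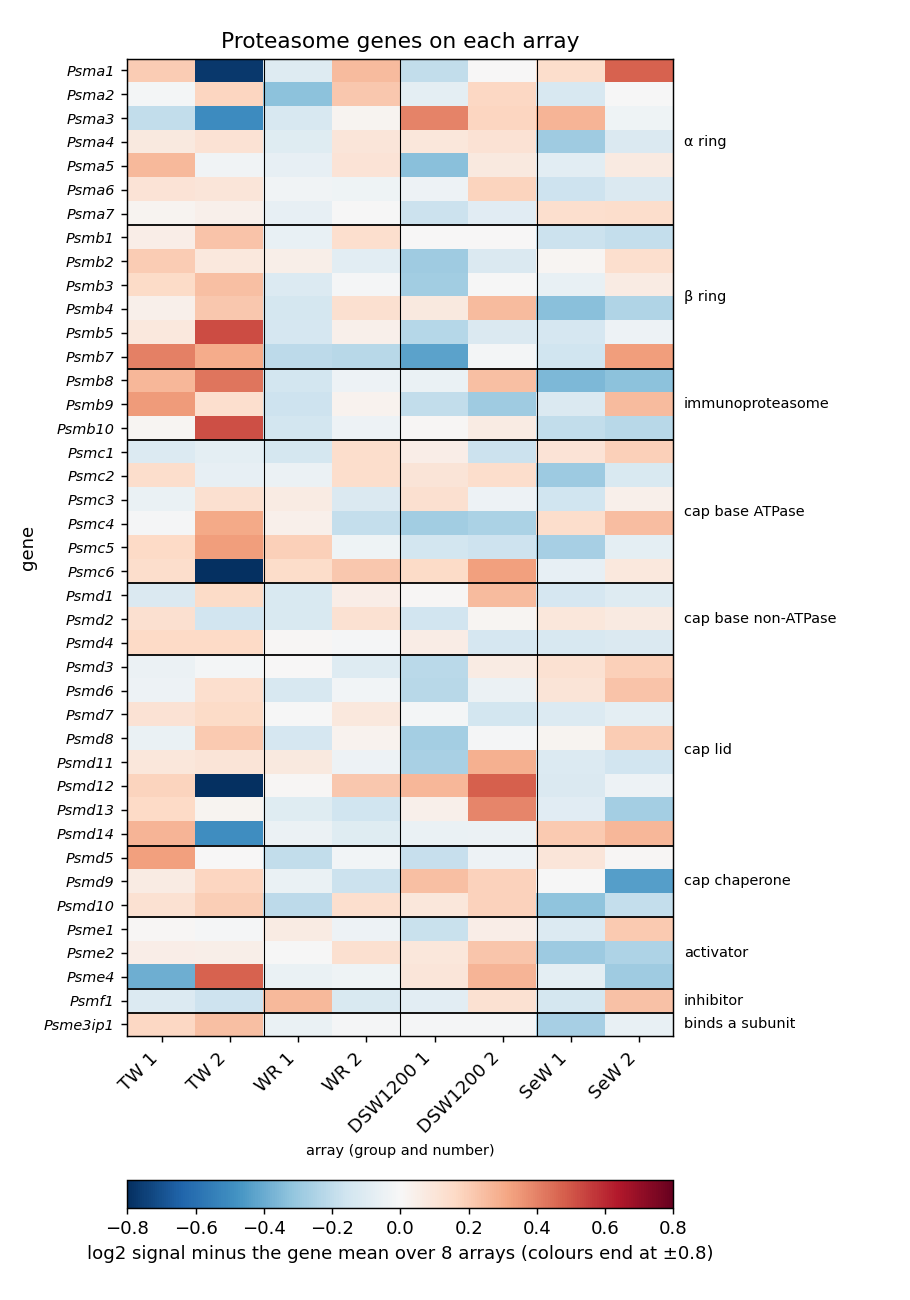
Each of the 41 tested proteasome genes (rows, by role) on each of the 8 arrays (columns), coloured by quantile normalized log2 signal minus the gene's mean over the arrays, red for above and blue for below. Differences between the 2 arrays of TW stand out for Psma1, Psmc6 and Psmd12, and Psmb8 is below its mean on both SeW arrays.

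The α ring, which forms the gate of the core and contacts the cap, was measured through all 7 of its subunits. Their median differences after quantile normalization were -0.09 for WR, -0.03 for DSW1200 and -0.12 for SeW, each minus TW, with 5, 4 and 4 of the 7 lower, where 0, 2 and 0 were lower with the values as deposited. These directions rested on single arrays, since the SeW median was 0.023 with 3 of the 7 lower without TW replicate 1, and the DSW1200 median was 0.075 with 2 of the 7 lower without DSW1200 replicate 1. Psma3 read 46.2 and 37.4 in TW, 48.6 and 53.8 in WR, 69.9 and 59.7 in DSW1200, against 64.1 and 51.8 in SeW. Both TW arrays were below all the other 6 for this gene, the only member of which that was true, against 4.19% of all genes. Its log2 difference was 0.64 ± 0.22 (SE) in DSW1200, with an adjusted p of 0.617 by limma. Psma4 read 319 and 328 in TW, 282 and 323 in WR, 322 and 327.5 in DSW1200, against 248 and 279 in SeW. Both SeW arrays lay below the rest, and the difference of SeW from TW was -0.30 ± 0.15 (SE; adjusted p = 0.321). The other 5 subunits read between 169.8 and 979, and their differences from TW ranged from -0.24 for Psma6 in SeW to 0.59 for Psma1 in SeW.

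The β ring holds the active sites in Psmb5, Psmb6 and Psmb7, the chymotrypsin-like, caspase-like and trypsin-like subunits. Of its subunits 6 were measured, and their median was -0.21 for WR minus TW, -0.34 for DSW1200 minus TW and -0.29 for SeW minus TW after quantile normalization, against 0.11, -0.30 and 0.68 as deposited. With the β-actin ratio as a term the medians were -0.19 for DSW1200 and -0.56 for SeW. The quantile normalized mean was below TW for 6 of the 6 in WR and SeW and for 5 in DSW1200, where Psmb4 was 0.03 higher, whereas with the values as deposited it was below TW for 2, 0 and 5 of the 6 in WR, SeW and DSW1200. Psmb5 read 377 and 510 in TW, 324 and 366 in WR, 304 and 328 in DSW1200, against 323 and 345 in SeW. Both TW arrays were above the other 6, and the largest difference was -0.48 ± 0.18 (SE) in DSW1200, with an unadjusted p of 0.025 and an adjusted p of 0.617 by limma.

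Psmb7 read 128 and 119 in TW, 83.5 and 83.0 in WR, 71.8 and 95.6 in DSW1200, against 86.4 and 122 in SeW. The WR and DSW1200 arrays were below both TW arrays, and SeW array 2 lay between them. Its difference was -0.56 ± 0.22 in WR (SE; adjusted p = 0.498) and -0.57 ± 0.22 in DSW1200 (SE; adjusted p = 0.617). Psmb4, a non-catalytic subunit, differed in its pattern: it read 1150 and 1299 in TW, 1012 and 1220 in WR, 1178 and 1330 in DSW1200, against 886 and 945 in SeW. SeW was the only group with both arrays below both TW arrays, by 0.42 ± 0.15 on the log2 scale (SE; adjusted p = 0.172), and SeW was 0.45 lower than DSW1200 (adjusted p = 0.140). The remaining Psmb1, Psmb2 and Psmb3 differed from TW by -0.34 to -0.07.

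The 3 inducible subunits of the immunoproteasome were lower than TW in each group after quantile normalization, with median differences of -0.36 in WR, -0.25 in DSW1200 and -0.47 in SeW, although with the values as deposited all 3 were higher than TW in SeW, by a median of 0.50 where the median gene was 0.92 higher. With the β-actin ratio as a term the medians were -0.10 for DSW1200 and -0.76 for SeW, and the SeW median was -0.72 without TW replicate 1 and -0.27 without TW replicate 2. None of the 3 passed limma's adjusted threshold, and Psmb8 did at an unadjusted p in WR and SeW, Psmb9 in DSW1200 and Psmb10 in SeW. Psmb8, the inducible counterpart of Psmb5, read 936 and 1045 in TW, 704 and 755 in WR, 751 and 917 in DSW1200, against 607 and 619 in SeW. Both TW arrays were above the other 6, as they were for 5.92% of all genes, and both SeW arrays were below the other 6. The share of all genes with both SeW arrays lowest was not counted, which holds for Psma4 and Psme2 too. The difference of SeW from TW was -0.69 ± 0.15 (SE), with a 95% interval from -1.03 to -0.35, an unadjusted p of 0.0011 and an adjusted p of 0.053 by limma. It lay just outside the threshold and moved across it with small changes of method: adjusted p was 0.040 with a stricter limit on dim genes, 0.049 with an offset of 32 before log2, 0.046 and 0.047 without either DSW1200 array, 0.038 without TW replicate 1 and 0.133 without TW replicate 2. Over all alternatives it ranged from 0.038 to 0.537, and as deposited Psmb8 was 0.28 higher in SeW (adjusted p = 0.305).

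Psmb10, the inducible counterpart of Psmb7, read 296 and 417 in TW, 264 and 285 in WR, 295 and 306 in DSW1200, against 255 and 251 in SeW. SeW was below both TW arrays, by 0.47 ± 0.18 on the log2 scale (SE; adjusted p = 0.197), whereas the DSW1200 arrays lay on either side of TW array 1. Psmb9, the inducible counterpart of Psmb6, read 1012 and 880 in TW, 715 and 816 in WR, 698 and 658 in DSW1200, against 740 and 954 in SeW. Here DSW1200 was lowest, at -0.48 ± 0.17 from TW (SE; unadjusted p = 0.017, adjusted p = 0.617), and SeW array 2 lay between the TW arrays. The ratio of Psmb8 to Psmb5 on the same array shows unequal change of the 2 probe sets and no level. Its log2 value differed from TW by -0.30 in SeW without overlap, and by 0.22 in DSW1200 and -0.09 in WR with overlap, which was not tested. For the pair Psmb10 and Psmb7 the difference was -0.21 in SeW, 0.34 in DSW1200 and 0.21 in WR, each with overlap. The order of the group means differed among the 3 inducible subunits, with SeW lowest for Psmb8 and Psmb10 and DSW1200 lowest for Psmb9.

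**Figure D3:**
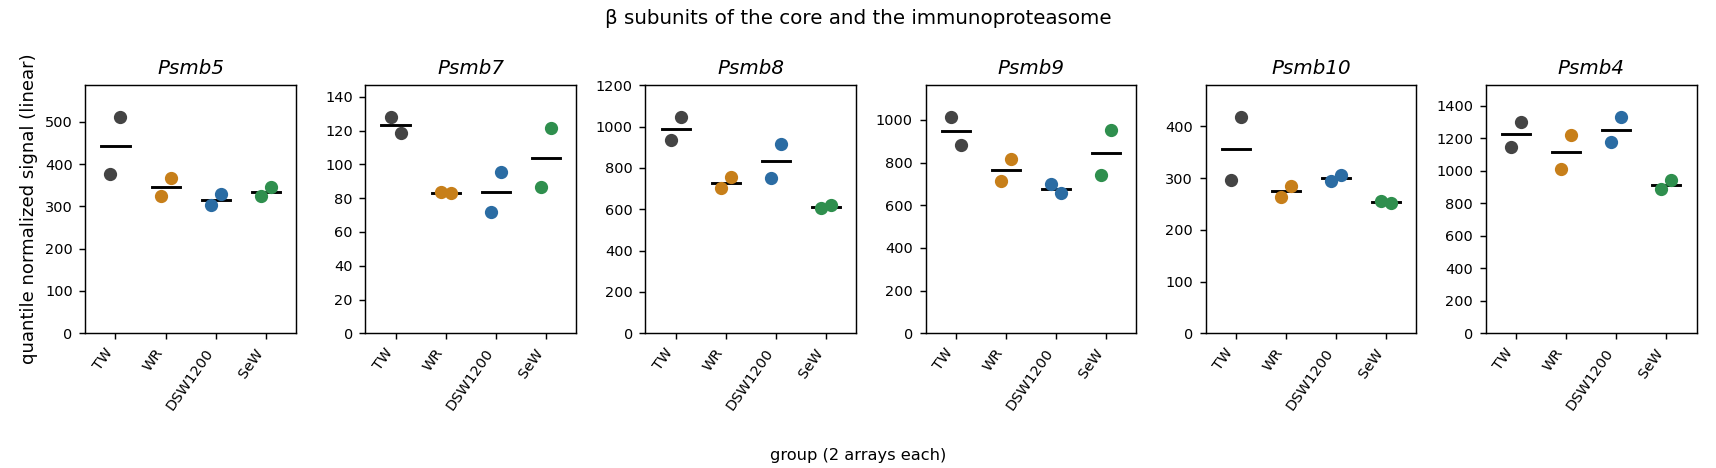
Quantile normalized signal (vertical axis, linear, from 0) of 6 β subunits in the 4 groups (horizontal axis), with a point for each array and a bar at the mean of 2 arrays. For Psmb5 and Psmb8 both TW points lie above all others, while SeW reaches the TW range for Psmb7 and Psmb9; as deposited, Psmb8 was above TW in SeW by 0.28 log2 units.

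Joining the β ring and the inducible subunits repeats the counts of these 2 classes and adds no separate result. Of the 9 measured Psmb genes all had a lower quantile normalized mean than TW in WR and in SeW, and 8 in DSW1200. Of all genes 51.1%, 53.5% and 52.4% were lower in that order. The medians of the 9 were -0.30, -0.32 and -0.34 in the same order, whereas with the values as deposited 5, 0 and 8 were lower. Relative to the median gene of the same scale the counts of genes below it were 9 in WR, 9 in SeW and 8 in DSW1200 on both scales. Without TW replicate 1 the counts below TW were 9, 9 and 9, and without TW replicate 2 they were 9, 9 and 7. Without SeW replicate 1, 8 of the 9 were below TW in SeW and 6 were below the median gene. With the mean of probe sets, 8 of the 9 were below TW in each of WR, SeW and DSW1200. Both TW arrays were above the other 6 for 6 members, 14.6% against 5.92% of all genes, namely Psmb3, Psmb5, Psmb8, Psmd4, Psmd7 and Psme3ip1.

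Interferon-responsive leukocytes carry inducible subunits too, so the markers of the cell types that the preparation could hold were read beside them. Of 14 T cell and intraepithelial lymphocyte markers, 11 were over the limit on dim genes, and Cd2, Cd3e and Cd8a were under it. The summed signal of the 14 was 469 to 582 in TW, 651 to 695 in WR, 626 to 692 in DSW1200 and 381 on both SeW arrays, so it was highest in WR and DSW1200 and lowest in SeW. The 17 myeloid and antigen presenting markers, 15 of them over the limit, summed to 5851 to 6146 in TW, 4809 to 7727 in WR, 3833 to 6531 in DSW1200 and 6267 to 6272 in SeW. The 5 B and plasma cell markers with a probe set, 2 of them over the limit, summed to 32.2 to 425 in TW, 441 to 750.2 in WR, 493 to 538 in DSW1200 and 36.1 to 589 in SeW. The SeW arrays were thus low for Psmb8, Psmb10 and the lymphocyte sum but not for the myeloid sum, which bright genes can dominate. Gene by gene, 10 of the 11 lymphocyte markers over the limit had a lower mean in SeW than in TW, with a median of -0.36. Of the 15 myeloid markers 9 were lower, with a median of -0.09, where 53.5% of all genes were lower. In WR and DSW1200 the lymphocyte sum was above TW, while the inducible subunits had medians of -0.36 and -0.25 from TW after quantile normalization. The part of these cells in the result was not tested.

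Genes that act with the immunoproteasome in making and loading MHC class I peptides were read next. Of 15 such interferon and MHC class I partners 9 were tested, and after quantile normalization the mean was below TW for 3 of them in WR, 5 in DSW1200 and 4 in SeW, with 0 calls against TW by limma. On the RefSeq order of genes Psmb8 lies between Tap2 and Tap1, and Psmb9 follows Tap1. Tap2, a subunit of the peptide transporter, read 148 and 188 in TW, 73.1 and 101 in WR, 140 and 76.8 in DSW1200, against 253 and 236 in SeW. It rose in SeW as compared with WR, by 1.50 on the log2 scale (adjusted p = 0.046 by limma), and this was 1 of the 3 calls among all the pathway genes examined. The call was lost under 9 of 17 alternatives, with an adjusted p of 0.0047 to 0.979 over them, the highest with the β-actin ratio as a term. Tap1 read 102 and 93.7 in TW and 93.6 and 106 in SeW, a difference of 0.03. B2m, the light chain of MHC class I, read 6177 and 7067 in TW and 6858 and 6779 in SeW, a difference of 0.05, and Irf1, which activates inducible subunits after interferon, differed by -0.19 (adjusted p = 0.680). Over the 9 partners the differences of SeW from TW ranged from -0.72 for Gbp2 to 0.55 for Tap2, with adjusted p of 0.304 and 0.324 by limma.

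The base of the cap is a ring of 6 ATPases that unfolds the substrate, with the scaffold subunits Psmd1 and Psmd2 and the ubiquitin receptor Psmd4. After quantile normalization the median of the ATPases was within 0.03 of TW in every group: -0.02 for WR, 0.02 for DSW1200 and -0.03 for SeW. Single ATPases ranged from -0.42 for Psmc5 in SeW to 0.68 for Psmc6 in DSW1200, and the 2 TW arrays lay apart for Psmc6, as given further on. Psmc4 read 183 and 227 in TW, 189 and 161 in WR, 152 and 155 in DSW1200, against 203 and 218 in SeW. DSW1200 was below both TW arrays and both SeW arrays, at -0.41 ± 0.18 from TW (SE; adjusted p = 0.617), and SeW was 0.45 ± 0.18 above DSW1200 (SE; adjusted p = 0.195). Psmc5 read 176 and 198 in TW, 179 and 154 in WR, 142 and 140.2 in DSW1200, against 131 and 148.5 in SeW. It was below both TW arrays in DSW1200 and SeW, at -0.40 and -0.42, with adjusted p of 0.617 and 0.222.

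The scaffold and receptor subunits of the base varied less. Psmd4 read 220.7 on each TW array, then 199 and 197 in WR, 206 and 181 in DSW1200, against 181 and 183 in SeW. All 6 other arrays were below TW, but the largest difference was -0.28 ± 0.16 in SeW (SE; adjusted p = 0.363). Psmd1 read 70.5 and 84.7 in TW and 69.6 to 91.0 on the other arrays, which overlapped TW in every group. Psmd2 differed from TW by -0.06 to 0.09.

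The lid of the cap removes ubiquitin chains from the substrate, through the metalloprotease subunit Psmd14. Its 8 measured subunits had medians of -0.09 for WR, -0.06 for DSW1200 and 0.08 for SeW, each minus TW after quantile normalization, with 6, 5 and 3 of the 8 lower. Psmd12 read 169 and 74.9 in TW, 149.9 and 173 in WR, 179 and 208 in DSW1200, against 138 and 145 in SeW. Psmd13 read 120.5 and 109 in TW, 101 and 96.6 in WR, 111 and 142 in DSW1200, against 101 and 89.1 in SeW. WR and SeW were below both TW arrays for Psmd13, at -0.22 ± 0.19 and -0.27 ± 0.19 (SE), and DSW1200 was not, with adjusted p of 0.724, 0.474 and 0.845 for WR, SeW and DSW1200. Over the whole cap, base and lid together, the 17 subunits had medians of -0.06, -0.05 and 0.04, beside -0.13, -0.14 and -0.19 for the 13 subunits of the core, the α and β rings, after quantile normalization. With the values as deposited the cap's medians were 0.26, 0.03 and 1.00, where the median gene was at 0.38, 0.05 and 0.92. The sign of the cap's SeW median was not stable: leaving out TW replicate 1 gave -0.11, TW replicate 2 gave -0.050 and SeW replicate 2 gave -0.057, and it was -0.094 with the mean of probe sets and -0.20 with the β-actin ratio as a term, and its DSW1200 median was 0.024 without DSW1200 replicate 1. These 2 lists were not tested against each other.

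**Figure D4:**
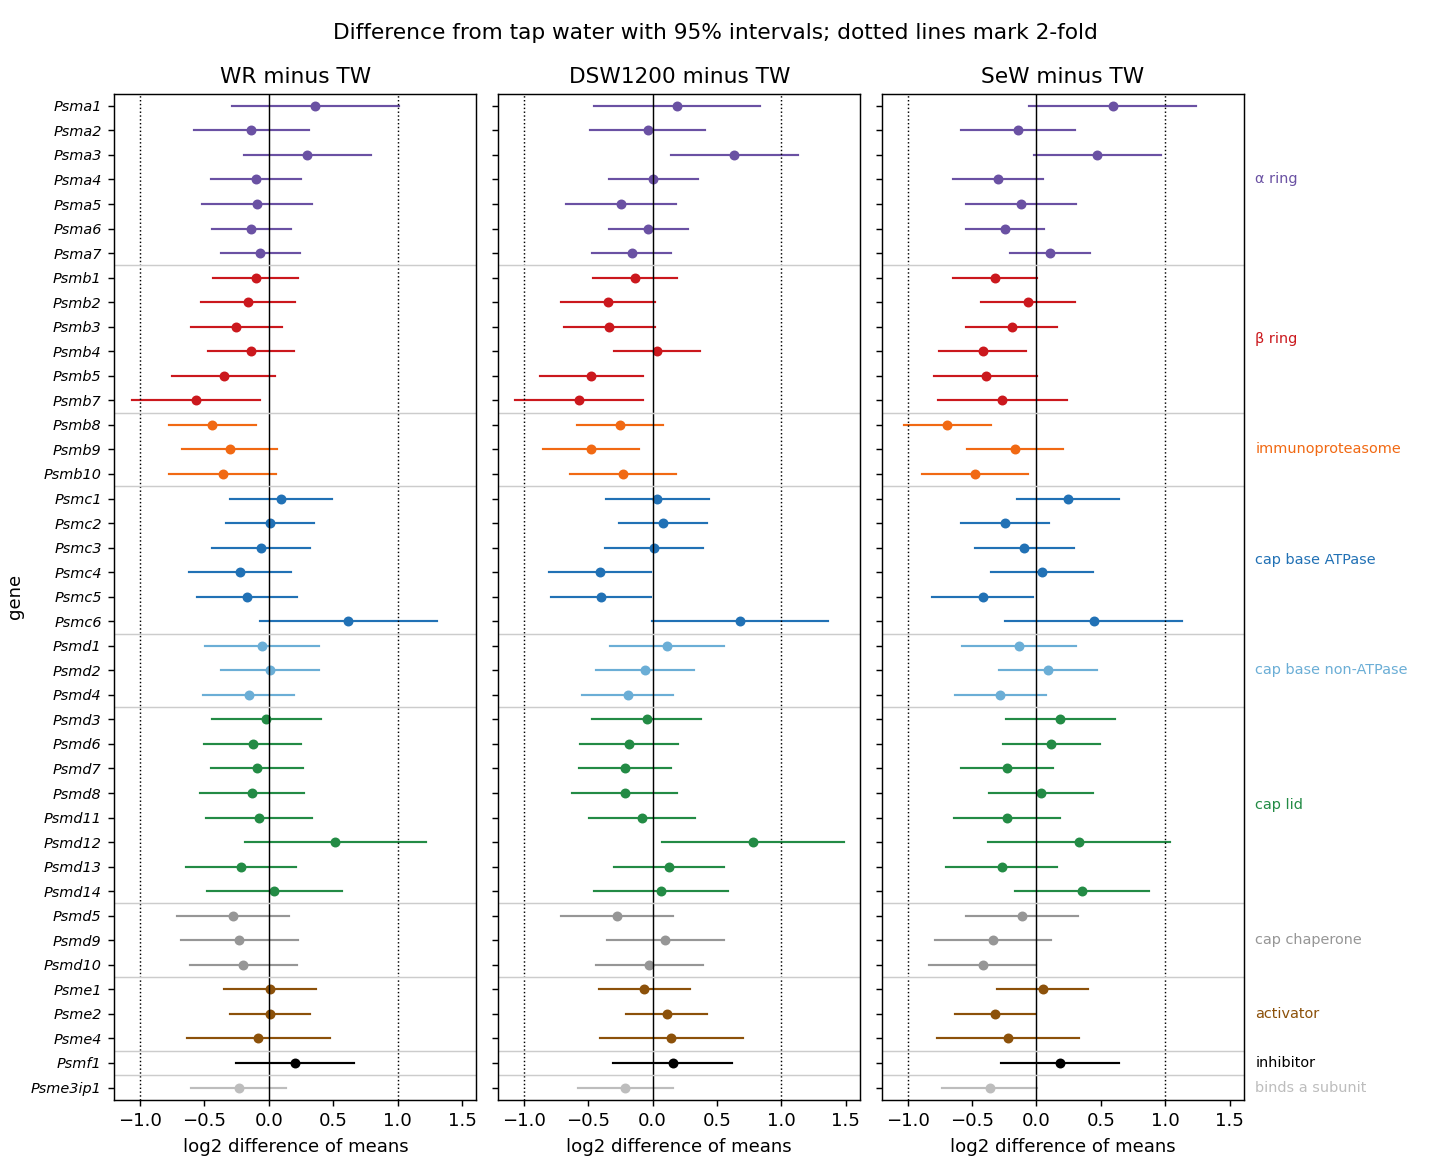
Log2 difference from TW (horizontal axis) of each of the 41 proteasome genes (rows, coloured by role), for WR, DSW1200 and SeW, with points for the difference on quantile normalized values and lines for the 95% interval. Dotted lines mark 2-fold, and no point lies beyond them.

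Psmd5, Psmd9 and Psmd10 are chaperones that assemble the base and leave before the complex is finished. After quantile normalization all 3 had a lower mean than TW in WR and SeW, with medians of -0.23 and -0.34, and 2 of the 3 in DSW1200, whereas as deposited 0, 0 and 1 were lower. The SeW median was -0.12 without SeW replicate 2 and -0.014 with the β-actin ratio as a term. Psmd10, also known as gankyrin, read 121 and 128 in TW, 96.5 and 122 in WR, 118.5 and 126 in DSW1200, against 88.9 and 97.8 in SeW. Both SeW arrays were below TW, at -0.42 ± 0.19 (SE; adjusted p = 0.255). Psmd9 read 85.0 and 91.6 in TW, 78.5 and 72.2 in WR, 96.3 and 92.6 in DSW1200, against 81.3 and 60.0 in SeW, so that DSW1200 was above both TW arrays and WR and SeW below them. The differences were 0.10, -0.23 and -0.34, with adjusted p of 0.896, 0.725 and 0.395.

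The activators open the gate of the core without a cap. Psme1 and Psme2 form the interferon-inducible activator ring. Psme1 read 729 and 721 in TW, 756 and 703 in WR, 641 and 751 in DSW1200, against 673 and 835 in SeW, and its groups overlapped throughout. Psme2 read 639 and 634.5 in TW, 612 and 671 in WR, 656 and 718 in DSW1200, against 501 and 518 in SeW. Both SeW arrays were below all the other 6, at -0.32 ± 0.14 from TW, -0.43 from DSW1200 and -0.33 from WR, with adjusted p of 0.240, 0.128 and 0.276. The partners of 1 ring thus had a difference of 0.05 for Psme1 and -0.32 for Psme2 in SeW, and the difference between them was not tested. Psmf1, an inhibitor of the core, read 132 and 127 in TW, 171 and 131 in WR, 134 and 155 in DSW1200, against 129 and 168 in SeW, at 0.15 to 0.21 from TW with adjusted p of 0.667 to 0.824. Psme3ip1, named for binding Psme3, read 174 and 183 in TW and 129 to 155 on the other arrays, all below TW, with a difference of -0.36 ± 0.17 in SeW (SE; adjusted p = 0.260).

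For 5 of the 41 members the 2 TW arrays were more than 0.5 log2 units apart, against 32.8% of all genes. WR and DSW1200 had 1 such member each and SeW had 0, against 21.2%, 27.4% and 17.4% of all genes. In each group the members' share was thus below that of all genes. Psma1 read 333 and 169.8 in TW, Psmc6 214 and 96.0, Psmd12 169 and 74.9, and Psmd14 207 and 121, all with the lower value on the array that stood apart. Psme4, an activator of the core found mainly in the nucleus, went the other way, at 279 and 506. On the other 6 arrays Psmc6 read 185 to 244 and Psmd12 138 to 208, above the lower TW value and on either side of the higher.

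Calls appeared when TW replicate 1 was left out, so that the array standing apart represented TW alone and was assumed to vary like the other groups. More of all genes were called then as well, so only the differences of the members are given. Psmc6 was then higher in WR by 1.19 and in DSW1200 by 1.26, and Psmd12 by 1.10 and 1.36. In SeW, Psma1, Psmc6 and Psmd12 were higher by 1.08, 1.02 and 0.91, and Psmb8 and Psmb10 were lower, at -0.77 and -0.72. Without TW replicate 2 each of these differences was smaller in size. Psmc6 then differed by 0.04, 0.10 and -0.13 in WR, DSW1200 and SeW, Psmd12 by -0.07, 0.19 and -0.26, and Psma1 by 0.11 in SeW, while Psmb8 remained at -0.61 and Psmb10 was at -0.23.

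**Figure D5:**
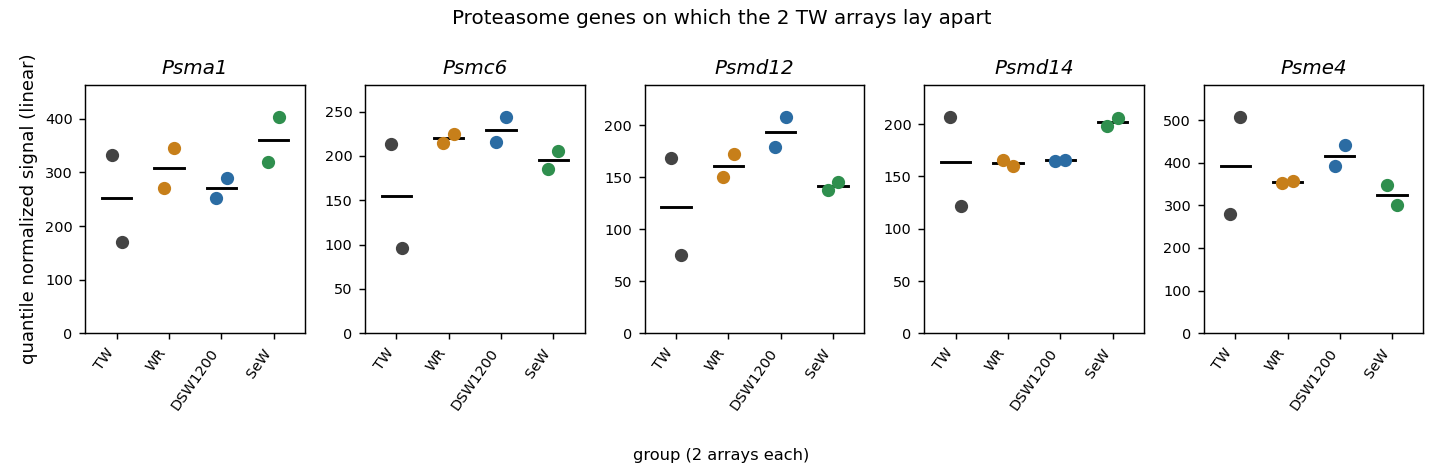
Quantile normalized signal (vertical axis, linear, from 0) of the 5 proteasome genes whose TW arrays differed by more than 0.5 log2 units, with a point for each array, left for replicate 1 and right for replicate 2, and a bar at the mean. For Psmc6 and Psmd12 the lower TW point lies below all other arrays, and the upper one lies among them.

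Probe sets of the same gene did not always move alike. The 3 probe sets of Psmc6 gave differences in WR of 0.62, 1.55 and -0.97, from the brightest to the dimmest, and those of Psme4 gave -0.08, 0.57 and 0.21. The second probe set of Psmd7 gave -0.63 in DSW1200, where the brightest gave -0.21, and that of Psmd14 gave -0.39 in WR, where the brightest gave 0.04. The further probe sets of Psmb5, Psmc4, Psmd9 and Psme1 were under the limit on dim genes. RefSeq lists pseudogenes or like-named copies for 16 of the 42 genes, 42 copies in all and 10 for Psmb3, and whether probes read such copies was not tested.

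Genes outside the naming rule that belong to the same pathway were read for context. Of 44 listed genes 33 were tested, and 0 passed in any comparison with TW by limma, with 2, 5 and 3 at an unadjusted p under 0.05 in WR, DSW1200 and SeW, where 9.7%, 7.92% and 19.6% of all genes were. Between SeW and DSW1200, 2 fell: Txnl1, a thioredoxin-like protein bound to the cap, by 0.95 on the log2 scale (adjusted p = 0.046), and Ubqln2, a shuttle that carries ubiquitin-tagged proteins to the proteasome, by 1.02 (adjusted p = 0.048). Each of these calls was lost under 13 of 17 alternatives, among them the β-actin ratio as a term, with which Txnl1 differed by -0.28 (adjusted p = 0.984) and Ubqln2 by 0.19 (adjusted p = 0.985). Txnl1 read 747 and 489.6 in TW, 654 and 793 in DSW1200, against 395 and 351 in SeW. Both SeW arrays were below TW as well, at -0.70 (adjusted p = 0.113). Ecpas, which holds cap and core together, was at -0.58 in SeW from DSW1200 without passing (adjusted p = 0.072), with 473 and 463 against 699 and 697. The assembly factor Pomp read 947 and 901 in TW and 739 to 965 on the other arrays, and Nfe2l1, the transcription factor that raises proteasome genes when the proteasome is inhibited, read 226 to 236 in TW and 192 to 242 elsewhere.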

How the data were processed

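RNA of loosened intestinal epithelial cells was hybridised to Affymetrix Rat Genome 230 2.0 arrays, 8 in all and 2 a group. The authors deposited a linear intensity per probe set, made with MAS5 by the submitters' processing notes; its version and scaling are not given in the sources used here. The study's methods state quantile normalization, but the deposited medians were 4.3 to 11.1 on different arrays, so the deposited values were taken as not yet normalized and were quantile normalized, set to at least 1 and taken to log2.

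Probe sets were named through Entrez gene numbers (20764) or accessions (2), and 66 kept the array's symbol. Each gene was represented by its brightest probe set of 1 symbol, and those whose mean signal passed 6.69, the median over probe sets, were tested (9258) in R 4.3.3 with limma 3.58.1: 1 model over 8 arrays (4 residual degrees of freedom), an intensity trend, and Benjamini-Hochberg adjustment over all tested genes at 0.05. The number of arrays limits the precision. The scripts were tested on simulated data. Members, roles, pathway and marker lists and motifs were chosen with earlier results of these data known. Named for their values on each array were the catalytic and inducible β subunits, the activators and inhibitor, and in each role the 2 genes with the smallest F test p; Psma1, Psmc6 and Psmd14 were added after their values were seen. Outside the members, the pathway genes past the threshold or with the 4 smallest F test p were named, and Tap1, B2m, Irf1, Pomp and Nfe2l1 for their roles. Gbp2 was named as the lower end of a range. Replicate numbers did not pair arrays (correlation of deviations -0.06 to 0.04 between groups). Alternatives are given in the closing section.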

Additional observations from a re-analysis of the deposited data

How the results depend on the processing

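The call of 0 proteasome genes in each test held under median centring, no limit on dim genes and the mean of probe sets. It also held in all 7 tests with no intensity trend, the β-actin ratio as a term and the replicate block. In the F test these settings called 0.454%, 0.00703%, 0.13%, 0%, 0% and 0.238% of all genes in that order. With so few calls over all genes, 0 members under these settings says little. The 3 calls among pathway genes were lost under the block (adjusted p of 0.067 for Txnl1, 0.058 for Ubqln2 and 0.072 for Tap2), and Ubqln2 turned to 0.19 with the β-actin ratio as a term. With the values as deposited, which left the SeW arrays brighter, 17 members were called in the F test, 31 in SeW against TW, 28 in SeW against DSW1200 and 3 in SeW against WR, all of the pairwise calls higher in SeW, where 29.9%, 47.3%, 40.4% and 10.5% of all genes were called. The stricter limit on dim genes and the offset of 32 each gave 1 in SeW against TW, Psmb8, lower. Of all genes tested 4.87% and 2.26% were called under these 2 settings. On leaving out 1 array, which left its group with 1 array, the call of 0 did not hold in every test. Without TW replicate 1 some members passed in the F test and in each comparison with TW, where more of all genes passed too. Psmb8 also passed in SeW against TW with either DSW1200 array left out, where more of all genes passed too.

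The median of the members in WR was 0.20 as deposited and -0.29 after median centring, and -0.15 to -0.049 on leaving out 1 array. In DSW1200 it was 0.023 as deposited, -0.13 with the mean of probe sets, and -0.15 to 0.018 on leaving out 1 array, being 0.018 without DSW1200 replicate 1, so its direction rested on that array. In SeW it was 0.80 as deposited, -0.054 after median centring, and -0.21 to -0.12 on leaving out 1 array. Of the 1071 differences of named members from TW under an alternative, 1000 kept their sign, 14 of them now past the threshold. The sign changed in 71, of which 29 were with the values as deposited, 8 with the mean of probe sets, 7 without TW replicate 2 and 5 each without TW replicate 1 and with the β-actin ratio. Past the threshold with a changed sign were 6, all as deposited in SeW against TW: Psma4 to 0.65, Psmb9 to 0.80, Psmd1 to 0.84, Psmd4 to 0.69, Psme2 to 0.64 and Psme4 to 0.74. The cause of these changes was not tested. No depth is defined for arrays; Psmc3ip had no usable signal over the limit.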
